A study of Mus musculus with 10 samples.

Results

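Blood left in a tissue carries RNA of its own, and the transcripts of red cells and platelets were followed here in whole lung of mice on an FO or a CO diet. The 8 genes chosen were Hba-a1, Hba-a2, Hbb-b1 and Hbb-b2 (adult globins), Alas2 (heme synthesis in red cells) and Pf4, Ppbp and Itga2b (platelets). They were taken by their symbols, and all 8 were among the 24059 symbols of the count table. Only 4 of them, Alas2, Pf4, Ppbp and Itga2b, had a count in any mouse, and the 4 globin genes were listed at 0 in all 10 mice.

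The mice were female C57Bl/6, 14 weeks old by the labels, and ate 1 of 2 high-fat diets for 8 weeks. The FO diet was enriched in fish oil, a source of n-3 PUFAs, and the CO diet in coconut oil, a source of saturated fat. There were 5 FO mice and 5 CO mice, each 1 sample. Per the labels the lungs were whole and had been flushed with PBS. There was no group on ordinary chow, so each difference is between 2 high-fat diets.

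Red cells of adult mice have no nucleus. Their youngest form, the reticulocyte, still carries RNA from the bone marrow, most of it globin mRNA, and loses it within days. Alas2 makes the first step of heme synthesis in this lineage, while its relative Alas1 serves other cells. Platelets also lack a nucleus and carry RNA from the megakaryocyte that shed them. Pf4 (platelet factor 4, Cxcl4) and Ppbp (Cxcl7) encode chemokines stored in platelet granules, and Itga2b encodes the integrin chain that pairs with Itgb3 to bind fibrinogen. Megakaryocytes are also found in mouse lung. In whole tissue, fewer cells of a type and less RNA per cell cannot be told apart.

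The depth of the samples limits what low transcripts can show. Total counts ran from 229766 to 1124963 per mouse, and Rn45s, the precursor of ribosomal RNA, took 21.8% to 87.0% of them. This left 45177 to 473254 counts on other genes. Levels per mouse are given below as nCPM, meaning CPM with Rn45s left out of the total. A floor of 3 counts stood for 6.34 (FO2) to 66.4 (CO1) nCPM. Rn45s was lowest in CO4 (21.8%), CO5 (51.7%) and FO2 (57.9%), and Malat1, a nuclear RNA, took 8.53% of the counts outside Rn45s in FO2 and 6.15% in CO5 against at most 1.05% in the other mice. Lung markers were present in every mouse: the 13 listed genes of lung epithelium summed to 0.843% to 1.47% of the counts outside Rn45s, led by Sftpc, Scgb1a1 and Sftpa1, while Aqp5, a marker of flat alveolar cells, was listed at 0.

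The globin genes sit in near-identical pairs. In the GENCODE M21 annotation of the GRCm38 (mm10) genome, Hba-a1 lies at chr11:32283511-32284465 and Hba-a2 at chr11:32296489-32297298, both on the plus strand, each with 3 exons. Hbb-b1 and Hbb-b2 are not in that annotation, and C57BL/6 strains carry Hbb-bs (chr7:103826534-103828096, minus strand) and Hbb-bt (chr7:103812524-103813996, minus strand) in their place. The coding sequences of Hba-a1 and Hba-a2 (429 bases each) differed at 1 base, C381T, with positions counted from the A of the start codon. Those of Hbb-bs and Hbb-bt (444 bases each) also differed at 1 base, C417T. The stretches of 90 bases around these differences are shown because they are the places in the coding sequence where a read can be given to 1 gene of a pair, with the differing base in capitals:
Hba-a1: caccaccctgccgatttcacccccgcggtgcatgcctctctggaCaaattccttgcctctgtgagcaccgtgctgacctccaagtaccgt
Hba-a2: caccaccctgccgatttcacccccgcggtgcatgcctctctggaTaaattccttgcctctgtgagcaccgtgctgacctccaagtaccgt
Hbb-bs: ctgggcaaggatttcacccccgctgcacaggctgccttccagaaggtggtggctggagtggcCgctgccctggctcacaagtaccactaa
Hbb-bt: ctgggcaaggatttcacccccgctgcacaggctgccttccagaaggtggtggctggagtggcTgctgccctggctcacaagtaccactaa

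No globin transcript was detected in any lung beyond 1 count. Of 13 adult and embryonic globin symbols looked for, 12 were in the table, and 11 of them had 0 counts in every mouse, Hbb-bs and Hbb-bt included. The exception was Hbq1a, a theta globin gene, with 1 count in FO2. At 0 counts, a level under the floor of 3 counts (6.34 nCPM in FO2, 66.4 in CO1) could not be seen, and the exact two-sided 95% limit for 0 counts was 81.7 nCPM in CO1. Both hold only if globin reads were counted when present, which is not known from the sources used here. The zeros therefore set no upper limit on globin RNA in the lung. Over the same libraries Alas2 had 244 counts in all.

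How far a read could be placed on a single globin gene was computed from the annotation. Of the 50-base windows along the transcript, 67.54% of those of Hba-a1 and 86.93% of those of Hba-a2 were shared with another gene. For Hbb-bs the value was 65.8% and for Hbb-bt 58.26%, so in GENCODE M21 each gene also had windows of its own. The count table holds Hbb-b1 and Hbb-b2 beside Hbb-bs and Hbb-bt, so it was made with another annotation. Sharing in that annotation was not computed. Among the protein-coding genes of the table with 50% to 90% of their windows shared, 336 of 451 (74.5%) were listed at 0 in all mice. It was 27.1% of the 14395 protein-coding genes with no shared window. These classes count sharing with other protein-coding genes in the same orientation, whereas the globin values count all transcripts on both strands. Whether shared windows led to the zeros of the globin genes was not tested. The windows of Pf4, Ppbp and Itga2b were not shared with any other gene.

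Alas2 had the most reads of the 4 counted genes. It lies at chrX:150547375-150570638 on the plus strand, with 11 exons. A stretch of 108 bases that ends just before this GENCODE start (chrX:150547267-150547374, plus strand, sequence from RefSeq, GRCm38.p6) is shown because it holds an AGATAA motif, a form bound by GATA factors such as the erythroid Gata1, printed in capitals as it reads on the other strand (TTATCT). The motif begins 86 bases before the start that RefSeq gives, which lies further inside the gene:
Alas2: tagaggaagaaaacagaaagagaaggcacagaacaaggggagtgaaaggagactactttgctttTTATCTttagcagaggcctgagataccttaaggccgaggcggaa
The motif was searched on both strands in the 250 bases before the RefSeq start of each gene and was found in 9.99% of 32851 such windows. Among the genes described here, the window of Hbb-bs held it too, and those of Hba-a1, Hba-a2, Hbb-bt, Pf4, Ppbp and Itga2b did not. This is a match of letters only.

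In the FO mice Alas2 had 36, 76, 7, 53 and 18 counts, or 144, 161, 151, 225 and 197 nCPM. In the CO mice it had 8, 5, 35, 2 and 4 counts, or 177, 89.9, 257, 7.13 and 15.6 nCPM. The 5 FO mice were close to each other, whereas the CO mice held both the highest level (CO3) and the lowest levels (CO4 and CO5), and the groups overlapped. The exact 95% interval of CO4 (0.863 to 25.7 nCPM) lay below the intervals of the other mice except CO5 (4.25 to 39.9), whose interval reached into that of CO2 (29.2 to 210). Intervals and floors cover counting error only.

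The diets did not differ in Alas2 beyond the spread between mice. Normalised to the TMM-scaled library, Alas2 was at 53.8 ± 10.1 CPM (SD, n = 5) in FO and 32.8 ± 31.9 CPM in CO. Its log2 fold change of FO over CO was 0.97 (SE 0.60, edgeR quasi-likelihood test, unadjusted p = 0.122, Benjamini-Hochberg adjusted p = 0.998 over the 2438 genes that passed the filter on low counts). The two-sided exact permutation test over the mice gave p = 0.167, where the smallest p possible is 0.00794. At an unadjusted p under 0.05, 71 of the 2438 genes were called in either direction (2.91%), 41 of them (1.68%) higher in FO. With library size alone as the scale 36 genes were called, 1 of them higher. After adjustment 0 genes were called by edgeR and 1 by DESeq2. The biological coefficient of variation of Alas2, its spread between mice of 1 diet beyond counting error, was 0.596, compared with a median of 0.273 over the genes tested.

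Single mice decided the size of the Alas2 difference. Its log2 fold change was 0.51 without CO4 and 0.59 without CO5. Without CO3 it was 2.15 and was called at the unadjusted threshold (edgeR, adjusted p = 0.999). In the fit of the 14161 genes with any count it was 0.99 and was called (edgeR, adjusted p = 0.905). Values that moved with the low Alas2 of CO4 and CO5 were their low Rn45s share, the lowest epithelial share in CO4 (0.843%, against 1.15% in CO5) and the high Malat1 share of CO5, while FO2, also low in Rn45s and high in Malat1, had an Alas2 level amid the FO mice. The part of these measures in the result was not tested, and without FO2 and CO5 the log2 fold change was 0.60 and was not called (edgeR, adjusted p = 0.999). Of the Alas2 windows, 13.83% were shared with Apex2 and Mir3620, which overlap Alas2 on the opposite strand. The strand setting of the counting is not given in the sources used here, so how reads of the overlap were counted is not known. Apex2 had 12 counts in all (FO2 7, CO3 3 and CO5 2).

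**Figure D1:**
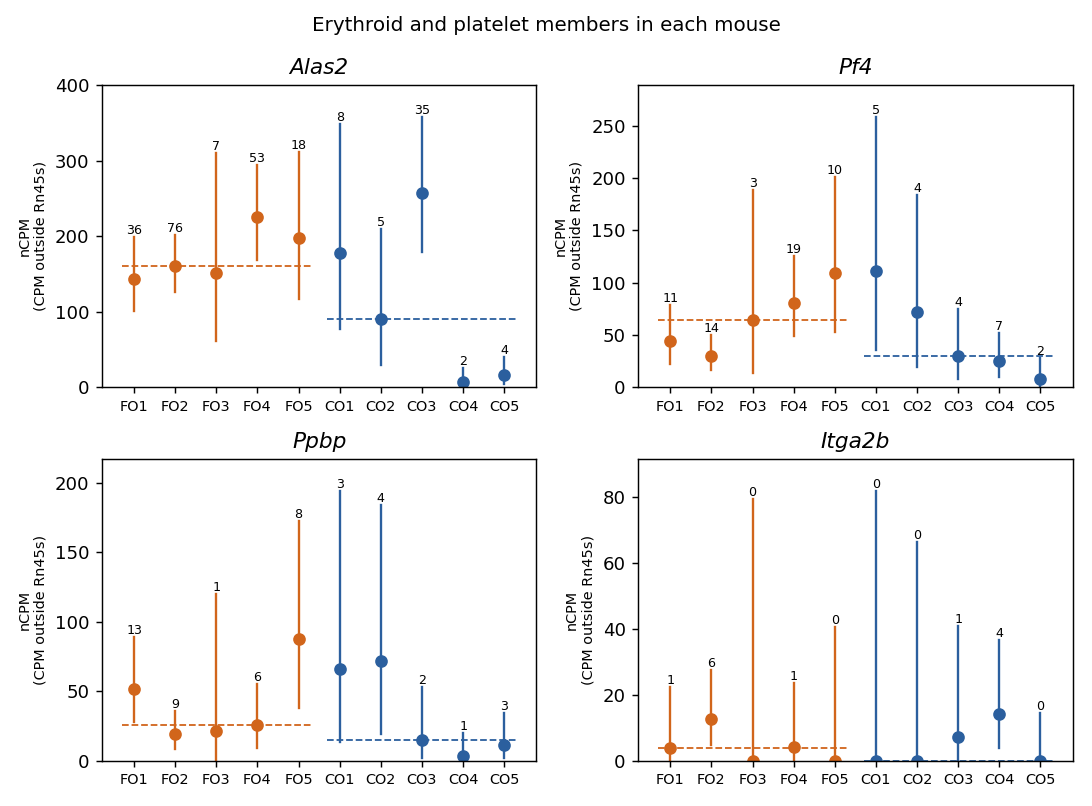
Level of the 4 counted genes in each mouse, in nCPM (y axis, linear, from 0), FO mice in orange and CO mice in blue. Points are the values, vertical bars the exact 95% binomial intervals, the number above each bar the count, and dashed lines the group medians. Alas2 in CO4 (7.13) and CO5 (15.6) lay below the other 8 mice (89.9 to 257).

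The platelet chemokine genes were both low and both spread widely within each diet. Pf4 lies at chr5:90772435-90773383 and Ppbp next to it at chr5:90768518-90770063, both on the plus strand with 3 exons. Pf4 had 11, 14, 3, 19 and 10 counts in the FO mice, or 43.9, 29.6, 64.6, 80.6 and 109 nCPM. In the CO mice it had 5, 4, 4, 7 and 2 counts, or 111, 71.9, 29.4, 24.9 and 7.80 nCPM. The highest and the lowest level were both in CO mice (CO1 and CO5), and the groups overlapped over the whole range of the FO mice.

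Ppbp was lower still in number of reads. It had 13, 9, 1, 6 and 8 counts in FO, or 51.9, 19.0, 21.5, 25.4 and 87.6 nCPM, and 3, 4, 2, 1 and 3 counts in CO, or 66.4, 71.9, 14.7, 3.56 and 11.7 nCPM. FO5, CO1 and CO2 were high and CO4 and CO5 low, as for Pf4. Itga2b, at chr11:102453297-102470122 on the minus strand with 28 exons, had 1, 6, 0, 1 and 0 counts in FO and 0, 0, 1, 4 and 0 in CO. It was at 0 in 5 of 10 mice, and only FO2 (6 counts, 12.7 nCPM) and CO4 (4 counts, 14.3 nCPM) were above the floor of 3 counts.

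None of the 3 platelet genes passed the test between diets. They did not pass the filter on low counts and were tested among the 14161 genes with any count, of which 587 (4.15%) were called, 365 (2.58%) higher and 222 (1.57%) lower in FO. With library size alone as the scale, 85 of 580 calls were higher. Pf4 was at 18.5 ± 8.24 CPM in FO and 12.4 ± 9.25 CPM in CO (SD, n = 5 each), a log2 fold change of 0.86 (SE 0.51, edgeR p = 0.0912, adjusted p = 0.905, exact permutation p = 0.222). Ppbp was at 11.7 ± 7.96 CPM and 8.49 ± 7.46 CPM, with a log2 fold change of 0.92 (SE 0.62, edgeR p = 0.137, adjusted p = 0.905, exact permutation p = 0.413). For Itga2b it was 0.16 (SE 0.95, edgeR p = 0.865, exact permutation p = 0.921), so a change of over 2-fold in either direction lies within 2 standard errors. Single mice again changed calls. Pf4 was called without FO2 (log2 fold change 1.11, edgeR, adjusted p = 0.790), without CO1 (1.20, adjusted p = 0.909) or without CO2 (1.09, adjusted p = 0.910). Ppbp was called without CO2 (1.42, edgeR, adjusted p = 0.910).

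Summed over Pf4, Ppbp and Itga2b, the FO mice had 99.8, 61.3, 86.1, 110 and 197 nCPM and the CO mice 177, 144, 51.4, 42.8 and 19.5. The highest mouse was FO5 and the next CO1, while CO3, CO4 and CO5 were below all FO mice. The median was 1.94 times as high in FO as in CO, but 1.02 times without CO4 or without CO5 and 1.07 times without CO3. Summed over all 38 platelet and megakaryocyte genes listed it was 1.07 times. That sum is weighted to other genes: of its 1736 counts, Gng11 had 671, Rasgrp2 222 and Plek 175, while Pf4 had 79, Ppbp 50 and Itga2b 13. With Rn45s included in the total, which raises the share in mice with little Rn45s, the median for Pf4, Ppbp and Itga2b summed was 1.13 times.

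Levels of different genes were compared per length of exon. Over the 10 mice Pf4 had a median of 75.2 nCPM per kilobase (10.8 to 154), Alas2 of 64.8 (2.97 to 107), Ppbp of 21.7 (3.29 to 80.9) and Itga2b of 0.366 (0 to 2.61). The ranges of Pf4, Alas2 and Ppbp overlapped, and the range of Itga2b lay below all of them.

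Other genes of the red cell were described by lists, each with the number of its genes that passed the same test. In heme synthesis all 8 listed genes had counts, and 1 of them, Alas2, was called in the fit of genes with any count, where 4.15% of all genes were called. With DESeq2, with library size alone, without CO4 and without FO2 and CO5, 0 of the list were called. Of all genes, 0.975%, 4.1%, 4.01% and 4.15% were called in those settings. With the replicate block Alas2 was called, where 1.29% of all genes were. The median log2 fold change of the list was -0.09, compared with 0.05 over all genes, and 4 of the 8 were positive, where 54% of all genes were. Alas1, the form of the enzyme in other cells, had 127 counts and a log2 fold change of 0.08 (SE 0.42), and Alad, the enzyme of the second step, had 60 counts and 0.47 (SE 0.56).

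Genes of the red cell membrane and cytoskeleton were nearly all at the edge of detection. Of 14 in the table, 4 were at 0 (Add2, Ermap, Kel and Rhd), and of the 10 counted 0 were called by edgeR or by DESeq2 at an unadjusted p under 0.05. Of all genes with any count, 4.15% were called by edgeR and 0.975% by DESeq2. Cd47, which is found on most cells as well as on red cells, had 213 counts and a log2 fold change of 0.01 (SE 0.33), and Dmtn, the dematin of the membrane skeleton, had 16 counts and 0.15 (SE 0.88). Next came genes with 11 counts each, among them Slc4a1, the band 3 anion exchanger of the red cell, with 9 counts in FO and 2 in CO (1.47, SE 1.09, edgeR p = 0.177, adjusted p = 0.905, exact permutation p = 0.167), and Sptb, the erythroid beta spectrin, with 7 and 4 (0.11, SE 0.88). All 10 log2 fold changes were positive, where 54% of all genes with any count were. Their median was 0.93, but 4 of the genes were at 0 in 1 group. With those at their bound the median was 0.08. The bound sets the rate in the counted group against a floor of 3 counts in the other, or no change if not above it. With library size alone as the scale, 7 of 10 were positive.

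Regulators and enzymes of the erythroid lineage were called once in 20, where 4.15% of all genes were called. Gata1, Klf1, Nfe2, Gfi1b, Car1 and Trim58 were listed at 0 in all mice, the first 4 being transcription factors of nucleated erythroid cells. The gene called was Epor, the erythropoietin receptor, with 0 counts in FO and 3 in CO, which is at the floor. All 3 were in CO4 (exact permutation p = 1), so without CO4 the gene had no count and was not tested. The call was lost with DESeq2 and with the replicate block. The genes with the most counts in this list are also used by other cells: Xpo7 (286 counts, log2 fold change 0.14), Prdx2 (240 counts, -0.02) and Bnip3l (214 counts, -0.30), and none of these was called. The median of the list was 0.24, or 0.20 with genes at 0 in a group at their bound. It was -0.19 with library size alone as the scale, where the median over all genes was -0.43.

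Of 38 platelet and megakaryocyte genes, 32 had counts, 3 were called higher in FO and 1 lower, where 2.58% and 1.57% of all genes were. With DESeq2 and with the replicate block Clec1b was the 1 gene of the list called, where 0.975% and 1.29% of all genes were called. Clec1b, the platelet receptor for podoplanin, had 1, 5, 2, 6 and 4 counts in FO and 0, 0, 1, 0 and 1 in CO. The ratio of its rates was 6.35 (95% counting interval 1.52 to 56.4) and its log2 fold change 2.61 (SE 1.01, edgeR p = 0.00978, adjusted p = 0.905, exact permutation p = 0.0238). FO1, with 3.99 nCPM, was the 1 FO mouse that lay within the CO range of 0 to 7.34 nCPM. Gp9, a chain of the receptor for von Willebrand factor, had 6 counts in FO and 0 in CO (exact permutation p = 0.167). Its FO rate was 1.41 times that of a floor of 3 counts in CO. Selp, the P-selectin of platelets and endothelium, had 5 and 0 (exact permutation p = 0.444), with 4 of the 5 counts in FO4. Its FO rate was 1.18 times that of the same floor, and neither ratio covers the counting error of the FO counts. Trpc6, a cation channel that smooth muscle expresses as well, had 26 counts in FO and 44 in CO (log2 fold change -1.16, SE 0.52, edgeR p = 0.0272, adjusted p = 0.905, exact permutation p = 0.484).

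The most abundant platelet-list genes did not pass the test. Gng11 (671 counts), Rasgrp2 (222 counts) and Plek (175 counts) were among the filtered genes, with log2 fold changes of -0.10, 0.54 and 0.02. The exact permutation p of Rasgrp2 was 0.0556. The median over the 32 genes was 0.52, compared with 0.05 over all genes, and 0.29 with genes at 0 in a group at their bound. Without FO2 and CO5, the mice high in Malat1, the genes called were Clec1b and Gp9 (higher) and Itga2 (lower), and 4.15% of all genes were called. Without CO4 the genes called were Clec1b, Gp9, Rasgrp2 and Trpc6, 3 higher and 1 lower, where 4.01% of all genes were called. Clec1b was also called by DESeq2 and with library size alone, while Selp was called in none of those 4 settings.

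**Figure D2:**
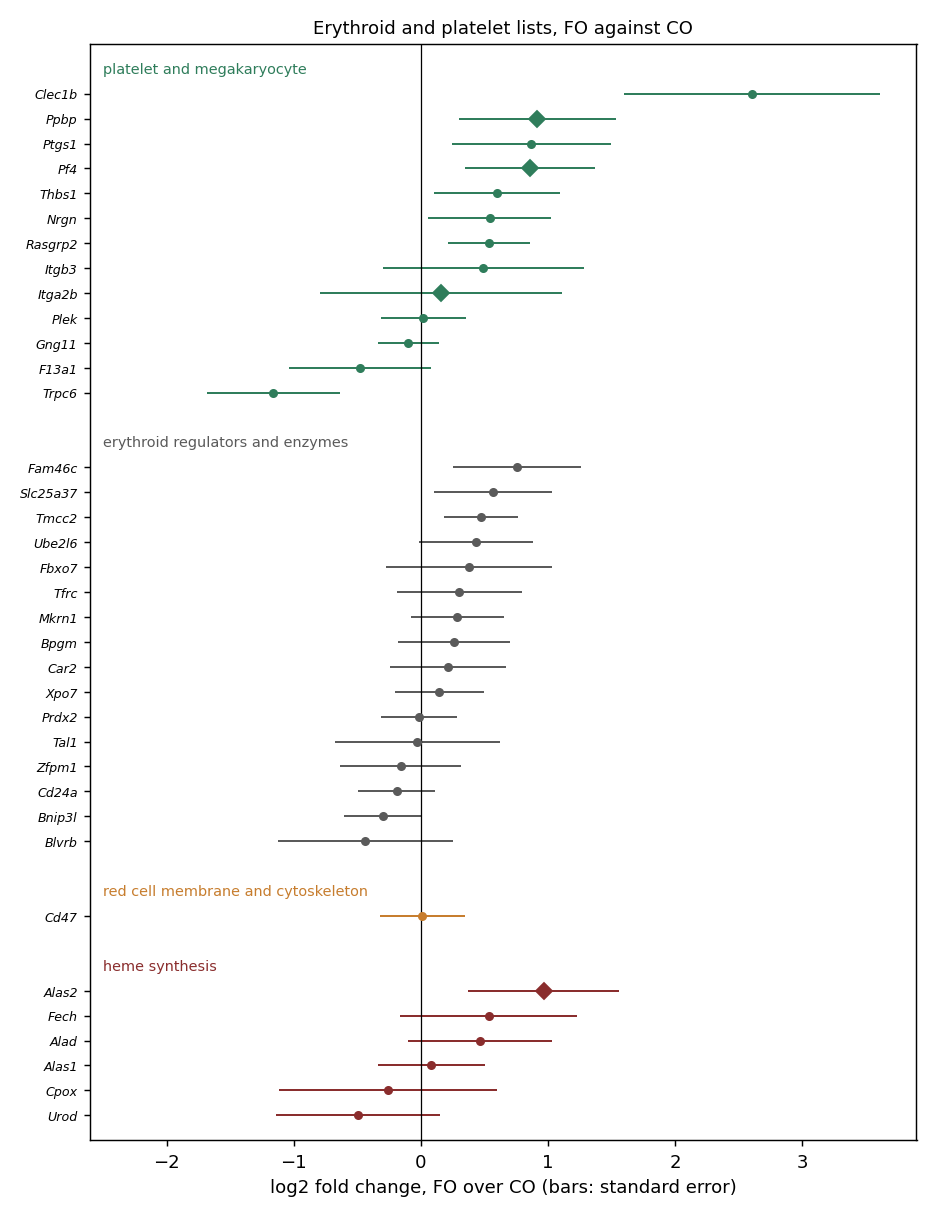
Log2 fold change of FO over CO (x axis) with its standard error (bars) for genes of the 4 erythroid and platelet lists that had at least 20 counts, plus Itga2b. Diamonds mark the genes chosen for the study of blood in the tissue, and colours mark the lists. Clec1b (2.61) lay farthest to the right and Trpc6 (-1.16) farthest to the left, and Gp9, Selp and Epor are not drawn because they had under 20 counts.

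Markers of other blood and tissue cells were measured beside these lists. The 19 neutrophil genes of the table summed to 0.0289% to 0.125% of the counts outside Rn45s in FO and 0.0239% to 0.0377% in CO, with Elane, Mpo, Prtn3 and Cd177 at 0, and 6 of the 15 counted were called higher in FO, where 2.58% of all genes were. It was 4 with DESeq2 or the replicate block, where 0.975% and 1.29% of all genes were called in either direction. It was 5 without CO4 or without FO2 and CO5, where 4.01% and 4.15% of all genes were called in either direction. It was 2 with library size alone, where 4.1% of all genes were called, 85 of 580 of them higher. Of the 6, exact permutation p was 0.0159 for S100a8, 0.0476 for Mmp8, 0.0873 for Retnlg, 0.167 for Camp and 0.444 for Ngp. Camp (4 counts) and Ngp (5 counts) were at 0 in CO, with FO rates 0.94 and 1.18 times that of a floor of 3 counts. Neutrophils too are cells of the blood, and S100a9, a calcium-binding protein they hold in quantity, had 236 counts in FO and 39 in CO (log2 fold change 2.27, SE 0.48, edgeR p = 0.000155, adjusted p = 0.377, exact permutation p = 0.00794). Of 14 lymphocyte genes 0 were called, where 4.15% of all genes were, and 2 had a positive log2 fold change, where 54% of all genes had. Their summed shares were 0.00430% to 0.0142% in FO and 0.00221% to 0.0210% in CO. With library size alone Cd79a was called lower, where 4.1% of all genes were called. For heart muscle 5 of 14 counted genes were called higher in FO, where 2.58% of all genes were. It was 3 without CO4 (4.01% of all genes called in either direction), without FO2 and CO5 (4.15%) or with the replicate block (1.29%). With DESeq2 it was 2 (0.975%) and with library size alone 1, Myl3 (4.1%). Exact permutation p was 0.0159 for Tnni3, 0.0317 for Myl3, 0.341 for Tnnt2, 0.373 for Ttn and 0.444 for Corin. FO2 held 148 of the 177 Ttn counts in FO. Corin had 4 counts in FO and 0 in CO, an FO rate 0.94 times that of a floor of 3 counts in CO. Heart genes had shares of 0.0274% to 0.106% in FO and 0.0153% to 0.0647% in CO, with Myl2 at 0. Among 12 epithelial and 13 endothelial genes 0 were called, where 4.15% of all genes were. The endothelial shares were 0.341% to 0.521% in FO and 0.417% to 0.486% in CO. Sftpc was called higher without FO2 and CO5, where 4.15% of all genes were called. Hopx was called higher without CO4, where 4.01% of all genes were called. What part such cells had in the erythroid and platelet values was not tested.

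From mouse to mouse the 2 platelet chemokines moved together. Over the 10 mice the log2 CPM of Pf4 and Ppbp had a Pearson r of 0.727 (permutation p = 0.0166, adjusted p = 0.0333) and a Spearman rho of 0.879 (permutation p = 0.00156, adjusted p = 0.00312), with 2 relations tested. It was 0.677 without CO5 and FO5, the mice farthest from the median of Pf4, 0.697 after each diet was centred on its mean, and 0.771 without FO2 and CO5. Both genes have few counts and are scaled by the same library size, which the values share.

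Alas2 and the summed platelet genes had a positive r that turned negative without CO4 and CO5. With the summed platelet genes Alas2 had r = 0.620 (permutation p = 0.0555) and rho = 0.297 (permutation p = 0.407). Without CO4 and CO5 r was -0.418, so it rested on those mice. It was 0.535 after each diet was centred on its mean and 0.498 without FO2 and CO5. For Pf4 with Ppbp, r was not computed without CO4 and CO5, so the 2 relations cannot be compared on this point. FO5 and CO1 were highest for the platelet genes, and CO3 and FO4 for Alas2.

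The genes whose pattern over the 10 mice was most like that of Alas2 were then listed from the 2437 other genes that passed the filter. The first was Slc25a37, or mitoferrin, the mitochondrial iron importer of erythroid cells, with r = 0.924 (rho = 0.685) on the log2 CPM scale. It had 87.9, 88.7, 108, 123 and 120 nCPM in the FO mice and 111, 144, 147, 24.9 and 19.5 in the CO mice. Like Alas2, it was low in CO4 and CO5 and at a similar level in the other 8 mice. Rsad2 (r = 0.907), Vps26a (0.901), Hspa8 (0.856) and Acsl4 (0.828) came next, and 6 genes in all were over 0.8, with a median r of -0.02 over all genes. Without CO4 and CO5, r was 0.102 for Slc25a37, 0.192 for Rsad2 and 0.128 for Vps26a, so their likeness lay in those 2 mice, but 0.689 for Hspa8 and 0.730 for Acsl4.

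At the other end stood Akap5 (r = -0.950), Akap2 (-0.916), Trim56 (-0.905), Nfe2l1 (-0.869) and Wnk1 (-0.866). Akap5, an anchor protein for kinase A, had 835, 520, 753, 785 and 657 nCPM in FO and 952, 737, 573, 2619 and 1802 in CO. The 2 mice lowest in Alas2 were thus the highest in Akap5, and r was -0.379 without them. These correlations describe 10 libraries that share their depth and scaling, and no test was made of them.

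**Figure D3:**
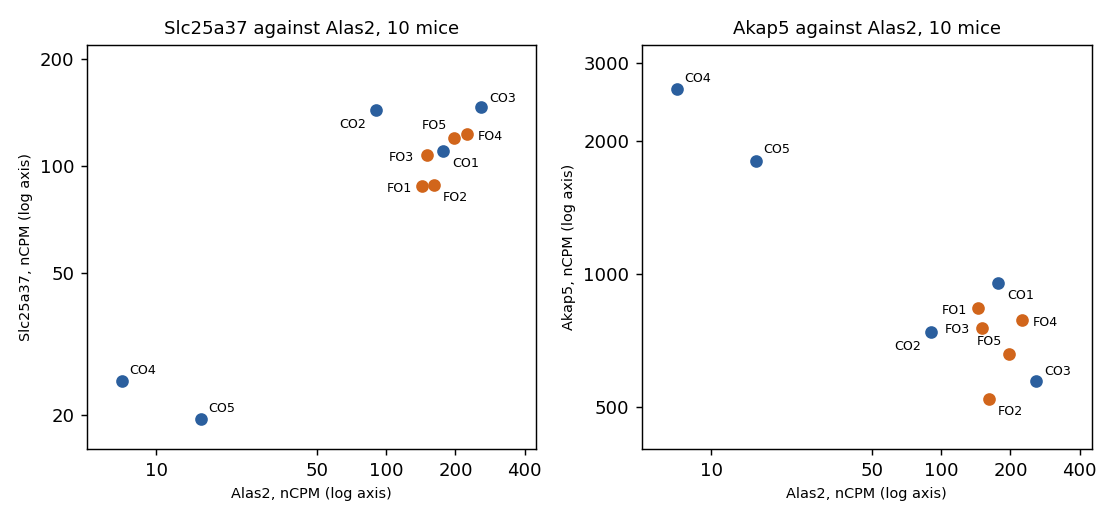
Slc25a37 (left) and Akap5 (right) against Alas2 in each of the 10 mice, all in nCPM on log axes, FO in orange and CO in blue. CO4 and CO5 stand apart at the low end of Alas2, where Slc25a37 was low (24.9 and 19.5) and Akap5 high (2619 and 1802), and the other 8 mice form 1 cloud.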

How the data were processed

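RNA of whole lung from 10 mice was sequenced as single-end reads by the authors, aligned with STAR (2.4.0f1) to mm10, sorted with SAMtools (0.1.19) and counted with HTSeq. The deposited values are raw counts per gene symbol, without normalization. Libraries were made with TruSeq RNA v2 or riboZero on 3 types of sequencer, and which mouse had which is not given in the sources used here, so these cannot be told apart from the spread between mice. The annotation and strand setting are likewise not given.

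Diets were taken from the labels. Counts were tested with edgeR (4.0.16, R 4.3.3): TMM scaling, quasi-likelihood test, default filter (minimum count 10, minimum total 15; 2438 genes), and again for all 14161 genes with any count. A call is an unadjusted p under 0.05, the study's threshold. Single genes were also tested with exact permutation (252 assignments) of log2 CPM (prior count 2), and relations with 100000 permutations. The members and lists were chosen with earlier results of these data known. Every member was named, as were genes of the heme, red cell, erythroid and platelet lists that were called or had the most counts. For the marker lists of other cells, the called genes, the markers at 0 and the leading lung genes were named after their values were seen. The rule for likeness used summed globin counts, which were 0, so Alas2 took their place after the data were seen, and the relation of Alas2 with the platelet genes replaced those with globins. Some genes of these lists are not reported here and were left out of the list counts. Genes were matched by symbol to GENCODE M21. On simulated counts, 100% of 200 genes changed 4-fold were called among 2438 and 71.2% of 191 among 13446. Smaller changes, such as those of Alas2, Pf4 and Ppbp, were not simulated, so these shares do not apply to them. Alternatives were RLE scaling, library size alone, other filters, no Rn45s, DESeq2 (1.42.0), limma-voom (3.58.1), robust estimation, a replicate block and leaving out each mouse. Leaving out the mice with Malat1 over 5% was added after seeing the data, as were the list counts under other settings.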

Additional observations from a re-analysis of the deposited data

Results flagged for a closer look

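Among the 5 FO mice, Itga2b stood apart in FO2, at 4.67 CPM compared with 1.24 CPM in the next mouse, by Dixon's test for a single distant value (ratio 0.733, critical value 0.71). It rests on 6 counts in that mouse. Of 10 groups of 5 values tested (4 genes and the summed platelet genes in each diet), chance would mark about 1 in 20.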

How the results depend on the processing

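The number of genes called among those that passed the filter (71) was 36 with library size alone as the scale, 15 when a gene had to reach 10 counts in all mice, 117 with limma-voom and 587 among genes with any count, and 54 to 154 when 1 mouse was left out (154 without FO2). Among genes with any count it was 138 with DESeq2, 183 with a replicate block and 535 to 782 when 1 mouse was left out. Library size alone moved the median log2 fold change of all genes to -0.55 and -0.43. Itga2b turned lower in FO with library size alone (-0.42), limma-voom (-0.10), the replicate block (-0.16), without FO2 and CO5 (-1.22), without FO2 (-0.83) and without CO5 (-0.23), and was -0.83 to 1.42 over the fits without 1 mouse. The other directions held in all alternatives: Alas2 at 0.51 to 2.15, Pf4 at 0.42 to 1.20 and Ppbp at 0.47 to 1.42. Alas2 became a call with limma-voom (1.55, adjusted p = 0.925) and with the replicate block (1.44, edgeR, adjusted p = 0.997), beside those named above. The summed platelet genes were 1.02 to 2.12 times as high in FO. The cause of these shifts was not tested. Same-numbered mice are different animals and did not deviate together (5 pairs, r of -0.41 to 0.03), so the numbers do not pair them. The haemoglobin share and its relations gave no value, since the globin members had 0 counts. Depth limits the genes with few counts, such as Itga2b (13 counts), Clec1b (20) and Selp (5).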
